A study of Rattus norvegicus with 20 samples.

Results

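The genes described are 10 genes of inflammatory signalling in the arcuate nuclei of 20 female Sprague-Dawley rats on postnatal day 15: the cytokine and chemokine genes Il1b, Il6, Tnf, Ccl2 and Tgfb1, the receptor genes Il1r1 and Tnfrsf1a, the NF-kB genes Nfkb1 and Nfkbia, and A2m. They were found by gene name among the 30367 non-control probes of a rat microarray, which held 11 probes for them. A2m was included because its level was higher in BYS and BYP than in SNS rats. Its levels against these groups are therefore a description with no test. The other 9 genes were chosen by name, but with earlier results of these data known. SNS rats had mothers injected with saline on gestational day 15, had no spasms and received saline after birth. BNS rats differed from SNS in that their mothers were injected with betamethasone, a synthetic glucocorticoid, at 0.4 mg/kg. BYS, BYA and BYP rats had the same prenatal betamethasone and then N-methyl-D-aspartic acid (NMDA) on days 12, 13 and 15 after birth to trigger spasms that serve as a model of infantile spasms; BYS rats received saline after birth, BYA rats ACTH, the hormone used against infantile spasms, and BYP rats PMX53, an antagonist of the complement receptor C5ar1. Each group held 4 rats, and each rat was 1 colour channel of a two-colour array.

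Interleukin-1β, tumour necrosis factor and interleukin-6 are early signals of inflammation that microglia, the resident macrophages of the brain, and other cells release. The receptors of interleukin-1β and tumour necrosis factor act through adaptor proteins and the IκB kinase complex, which marks the inhibitor IκBα for destruction and frees NF-kB dimers to enter the nucleus. NF-kB then switches on chemokine genes such as Ccl2 as well as Nfkbia, the gene of IκBα itself, which closes a negative feedback loop. Transforming growth factor β1 mostly restrains inflammation, and α2-macroglobulin traps proteases and cytokines in extracellular fluid.

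The upstream sequences are shown because binding of NF-kB near the start of a gene is the step that links the pathway to its targets. A sequence from 250 bases before to 50 bases after the start was held for 8 of the 10 genes (RefSeq, build GRCr8). The 10-base κB consensus, searched on both strands, occurred in 5 of these 8 and in 7.51% of all 33469 sequences of this length, and its letters were not in the windows of Il1b, Tnf and Tnfrsf1a. The match is printed in capitals and is a match of letters, not a measured binding site. In Nfkbia it lies on the opposite strand 31 to 22 bases before the start, within the 250 bases at chr6:78597073-78597322 (minus strand), and in Il6 it lies 68 to 59 bases before the start, within chr4:5894576-5894825 (minus strand).
Nfkbia: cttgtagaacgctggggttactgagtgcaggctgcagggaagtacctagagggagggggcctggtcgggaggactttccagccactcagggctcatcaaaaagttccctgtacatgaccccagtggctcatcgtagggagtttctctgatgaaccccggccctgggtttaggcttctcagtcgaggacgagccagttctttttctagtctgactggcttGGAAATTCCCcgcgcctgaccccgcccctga
Il6: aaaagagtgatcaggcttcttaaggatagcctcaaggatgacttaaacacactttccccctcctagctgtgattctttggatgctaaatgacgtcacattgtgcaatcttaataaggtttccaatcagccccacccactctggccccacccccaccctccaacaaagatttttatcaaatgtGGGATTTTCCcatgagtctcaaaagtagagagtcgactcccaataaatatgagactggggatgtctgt

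Nfkb1 carried the match 4 to 13 bases after its start and Il1r1 135 to 126 bases before it, on the opposite strand. The 30 bases around these matches are at chr2:226805440-226805469 (minus strand) and chr9:50034238-50034267 (plus strand).
Nfkb1: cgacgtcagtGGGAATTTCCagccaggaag
Il1r1: cagagaccctGGAATGCCCCgcagggatgt

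The probes themselves are 60 bases long, and the files place each one on the rat genome (build rn4) without naming an exon. The Ccl2 probe, at chr10:70257919-70257978 (plus strand), and the Il1b probe, at chr3:116964465-116964524 (minus strand), were each printed 10 times on the array. Their first 30 bases are shown because the Ccl2 and Il1b values below rest on them.
Ccl2 probe: tttatttctctgtgaatcctggttcaacac
Il1b probe: gctgaaaatgaagagtttcatattgtgtgg

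Levels are given as log2 intensity after background correction and quantile normalization over the 20 channels, and a probe was called above background in a rat if at least 0.5 of its spots were flagged so by the scanner software. Between 51.5% and 84.5% of the spots were above background in a channel. Signals exceeded their local background by a median ratio of 6.90 for SNS, 15.8 for BNS, 15.9 for BYS, 7.48 for BYA and 9.12 for BYP. All 11 markers of arcuate nucleus neurons passed the filter on dim probes, and their mean level lay between 11.74 and 12.56 in each of the 20 rats. The groups were hybridized on separate slides (BYA on 2), and slide and group cannot be told apart. Replicates 1 and 2 of a group shared an array, as did replicates 3 and 4, except for BYA replicates 3 and 4, whose arrays also held a male rat of another series. For BYA replicate 3 the dye label and the order of names in the raw data disagree, so which of the 2 animals its channel holds is not certain, and 0 of 6 listed sex-linked genes had a probe under that name with which to check it. The tests of these genes that rest on it are given with and without it. The labels give no litter for a rat, and p-values measure the spread between these samples, whose number limits the precision. In whole tissue, fewer cells of a type and less RNA per cell cannot be told apart.

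Il6 and Il1r1, the gene of the receptor through which interleukin-1β signals, were not above background in any of the 20 rats. The Il6 signal lay between means of 7.39 in BNS and 7.51 in BYP, and the Il1r1 signal between 7.30 in BNS and 7.94 in SNS. Both are therefore left without a comparison. Il1b was above background in 12 rats, 0 SNS, 2 BNS, 3 BYS, 3 BYA and 4 BYP, and Ccl2 in 11 rats, 0 SNS, 1 BNS, 3 BYS, 3 BYA and 4 BYP. Both genes passed the filter through BYP alone, the group in which they were highest. Tgfb1 was above background in 14 rats and Tnf in 17, while Tnfrsf1a, Nfkbia, Nfkb1 and both probes of A2m were above background in all 20.

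Ccl2, a chemokine that draws monocytes, had the widest range. In SNS its levels were 7.37, 7.38, 7.36 and 7.46 in replicates 1 to 4, and in BNS they were 7.48, 7.45, 7.40 and 7.63. In BYS they were 7.42, 7.54, 10.79 and 10.32. Replicates 1 and 2, which shared an array, stayed at the level of the rats without spasms, and replicates 3 and 4, on the other array, stood far above them. In BYA the levels were 11.33, 9.64, 7.46 and 11.99, with replicate 3 as low as the rats without spasms. In BYP they were 11.01, 10.30, 12.04 and 9.51, and every BYP rat lay above every SNS and BNS rat. The 10 spots of the probe had a median SD of 0.126 in a channel.

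Il1b was low in the same rats. Its levels were 7.73, 7.56, 7.57 and 7.48 in SNS and 7.49, 7.49, 7.44 and 7.50 in BNS. The BYS levels were 7.53, 7.52, 8.55 and 8.39, and the BYA levels were 9.09, 8.63, 7.61 and 8.99. All 4 BYP rats, at 8.45, 9.01, 9.05 and 8.31, lay above all SNS and BNS rats. BYS replicates 1 and 2 and BYA replicate 3 were again the low ones among the rats with NMDA.

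Tnf, the gene of tumour necrosis factor, was measured at 8.43, 8.34, 7.50 and 7.83 in SNS, replicates 1 and 3 not above background. The BNS levels lay close together at 8.08, 8.12, 8.25 and 8.20. The BYS levels were 7.96, 7.95, 9.85 and 9.90, again split by array. The BYA levels of 9.70, 8.70, 8.14 and 9.45 overlapped with BNS through replicate 3, which was not above background, while the BYP levels of 9.09, 9.73, 10.65 and 9.42 did not overlap with BNS or SNS.

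Nfkbia, the gene of the NF-kB inhibitor IκBα, was measured with a probe at chr6:75730438-75730497 (rn4, minus strand). The levels were 10.18, 10.16, 10.09 and 10.30 in SNS and slightly lower, with no overlap, at 9.83, 9.92, 10.03 and 10.06 in BNS. In BYS they were 10.28, 10.58, 10.88 and 10.90, all above BNS. In BYA they were 11.38, 10.77, 10.04 and 11.10. In BYP they were 11.64, 11.64, 11.59 and 10.33, with replicate 4 far below the other 3 but still above every SNS and BNS rat.

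**Figure D1:**
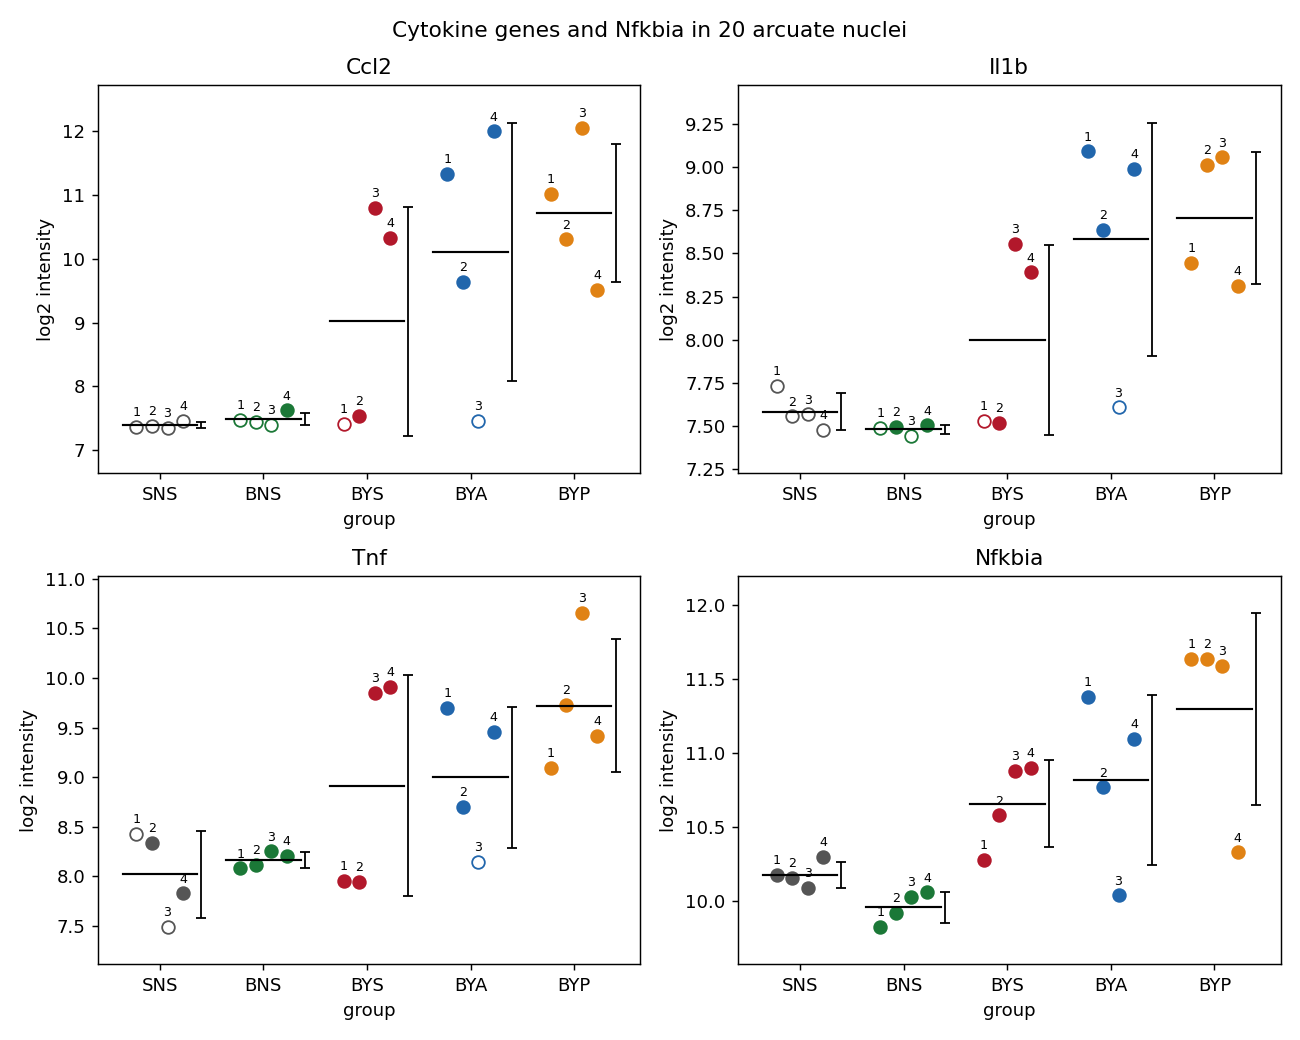
Log2 intensity (vertical axis) of Ccl2, Il1b, Tnf and Nfkbia in each of the 20 rats by group (horizontal axis). Points are rats, numbered by replicate, filled where the probe was above background and open where it was not; horizontal lines are group means and bars the SD (n = 4). BYS replicates 1 and 2 and BYA replicate 3 lie near the rats without spasms for the 3 cytokine genes, and all 4 BYP rats lie above all SNS and BNS rats for all 4 genes.

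Against BNS, the group that shares prenatal betamethasone but had no NMDA, PMX53-treated rats had 1 gene called by limma at an adjusted p under 0.05 of the 5 that passed the filter through a group other than BYP. Of all 17086 genes 1.50% were called and 0.650% were called higher. The gene called was Nfkbia, 2.53-fold higher in BYP than in BNS, a log2 difference of 1.34 (SE 0.273, adjusted p = 0.0209). Tnf did not pass at 1.56 (SE 0.449, adjusted p = 0.0822), nor did Nfkb1 at 0.45 (adjusted p = 0.0744) and Tnfrsf1a at 0.82 (adjusted p = 0.103). For 4 of these 5 genes, Tgfb1 being the exception, the 4 BYP rats lay above the 4 BNS rats without overlap, as they did for 6.33% of all genes. Il1b and Ccl2 entered the fit because they were high in BYP and are left out of these counts. The Il1b difference was 1.22 (SE 0.282, adjusted p = 0.0385), with 2 of 4 BNS rats above background, and that of Ccl2 was 3.23 (SE 0.838, adjusted p = 0.0592), with 1 of 4. Fitted with no filter on dim probes, the adjusted p was 0.0415 for Il1b and 0.066 for Ccl2. With the array as a random block the adjusted p was 0.155 for Nfkbia and 0.184 for Il1b, and with channels brought to a common median 0.633 and 0.834. Neither passed without any 1 of the 4 BNS rats or of BYP replicates 1, 2 and 3, nor Il1b without SNS replicate 2 (adjusted p = 0.0504). Without BYA replicate 3, which enters only through the shared estimate of spread, Ccl2 (adjusted p = 0.0234) and Nfkb1 (adjusted p = 0.0461) passed too, as did Ccl2 without BYA replicate 4 (adjusted p = 0.0443).

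The ACTH-treated rats had 0 of the 7 genes called by limma against BNS, where 0.117% of all genes were called, with 3 genes at an unadjusted p under 0.05 (13.1% of all genes) and 1 by the methods' t-test (10.3%). The differences were 1.10 for Il1b (SE 0.282, adjusted p = 0.133), 2.62 for Ccl2 (SE 0.838, adjusted p = 0.219) and 0.86 for Nfkbia (SE 0.273, adjusted p = 0.214). Only Il1b had no overlap between the groups, as had 4.68% of all genes in that direction. This count turned on 1 rat: without BYA replicate 3, Il1b (2.71-fold, adjusted p = 0.0122), Ccl2 (11.9-fold, adjusted p = 0.0296) and Nfkbia (2.21-fold, adjusted p = 0.0372) were called, beside 1.07% of all genes. Of the 4 BNS rats, 2 were above background for Il1b and 1 for Ccl2. On the 9 arrays with both channels in use, which leave out BYA replicates 3 and 4, Il1b was called (log2 1.34, adjusted p = 0.0115).

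Spasms with saline treatment gave no call. In BYS against BNS, limma called 0 of the 7 genes, where 0.0293% of all genes were called. At an unadjusted p under 0.05 it found 3 genes, beside 6.92% of all genes, and the methods' t-test 1, beside 7.57%. The differences were 0.70 for Nfkbia (95% interval 0.13 to 1.27), 1.53 for Ccl2 (−0.23 to 3.29), 0.75 for Tnf (−0.19 to 1.69) and 0.52 for Il1b (−0.08 to 1.11). Il1b and Nfkbia had no overlap between the groups, as had 2.58% of all genes in that direction. When channels were scaled to equal medians rather than quantile normalized, the Il1b difference was −0.09 and that of Tgfb1 was −0.04, so that their direction flipped.

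**Figure D2:**
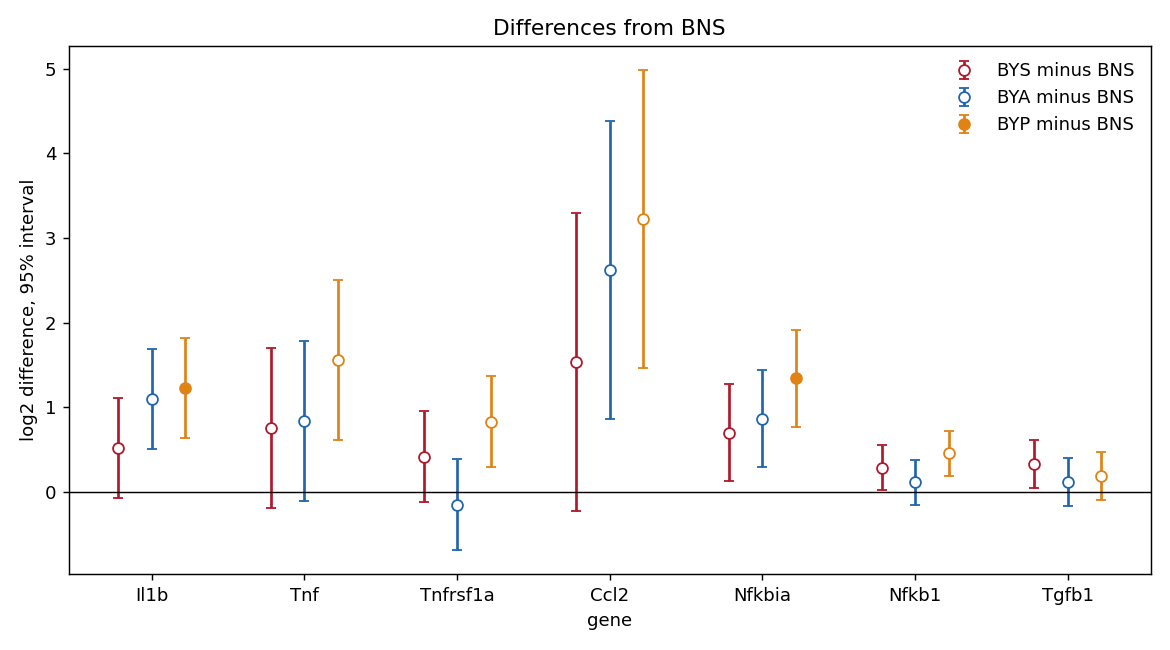
Log2 difference (vertical axis) from BNS of the 7 genes tested (horizontal axis) in BYS, BYA and BYP, with 95% intervals from the limma fit of all 20 rats. Filled points have an adjusted p under 0.05, which are Nfkbia and Il1b in BYP; the Ccl2 differences are the largest, with the widest intervals. Il1b and Ccl2 passed the filter through BYP alone.

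Among the 3 groups with NMDA, limma called 0 of the 7 genes in each comparison. In BYP against BYS 0.0351% of all genes were called, in BYA against BYS 0.00% and in BYP against BYA 0.158%. At an unadjusted p under 0.05 there were 2, 1 and 2 of the 7 genes, beside 8.50%, 8.07% and 13.6% of all genes. The 2 in BYP against BYS were Nfkbia and Il1b. Il1b, like Ccl2, passed the filter through BYP alone, so its differences between BYP and the other groups are not free of that choice. The methods' t-test found 0, 0 and 2, beside 5.53%, 4.99% and 6.91%. The Ccl2 difference between BYP and BYS was 1.70, with a 95% interval from −0.06 to 3.46, and that of Il1b was 0.71, with an interval from 0.11 to 1.30. Between BYA and BYS the Il1b difference was 0.58 (−0.01 to 1.17) and the Nfkbia difference 0.16 (−0.41 to 0.74). In BYP against BYA, Tnfrsf1a (log2 0.98, interval 0.44 to 1.52, adjusted p = 0.101) and Nfkb1 (0.34, 0.08 to 0.60, adjusted p = 0.244) had no overlap between the groups, as had 2.70% of all genes in that direction. Without BYA replicate 3, limma called 0 of the 7 genes in BYA against BYS and in BYP against BYA. The Il1b difference between BYA and BYS was then 0.92 (0.43 to 1.42, adjusted p = 0.119), and in BYP against BYA that of Tnfrsf1a was 0.81 (0.25 to 1.37, adjusted p = 0.144) and that of Nfkb1 0.23 (−0.03 to 0.48).

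In the comparisons with SNS, a large share of all genes was called, so the calls are to be read against that share. In BYP against SNS limma called 3 of the 5 genes that passed the filter through a group other than BYP, all higher, beside 28.9% of all genes in either direction and 15.4% higher. Tnf was 3.24-fold higher (adjusted p = 0.00952), with 2 of 4 SNS rats above background, Nfkbia 2.17-fold (adjusted p = 0.00567) and Nfkb1 1.40-fold (adjusted p = 0.00881). With channels brought to a common median Nfkbia (adjusted p = 0.0621) and Nfkb1 (adjusted p = 0.498) did not pass. Ccl2 and Il1b, which passed the filter through BYP, differed by at least 9.85-fold (adjusted p = 0.00712) and at least 2.17-fold (adjusted p = 0.00700), bounds because 0 SNS rats were above background. With no filter on dim probes their adjusted p was 0.0112 and 0.0104. In BYA against SNS limma called 2 of the 7 genes, both higher, beside 31.3% of all genes in either direction and 15.8% higher. They were Ccl2 (6.46-fold, adjusted p = 0.0205) and Il1b (1.99-fold, adjusted p = 0.0130), with SNS set as for the bounds above. BYA replicate 3 was itself not above background for either gene, so these folds are not lower bounds. With the array as a random block Ccl2 did not pass (adjusted p = 0.053), and with channels brought to a common median neither did (adjusted p = 0.0601 for Ccl2 and 0.148 for Il1b). Without BYA replicate 1 neither passed (adjusted p = 0.0724 and 0.0526), and without BYA replicate 4 Ccl2 did not (adjusted p = 0.0814). Without BYA replicate 3, 4 genes were called, Tnf (2.43-fold, adjusted p = 0.0448) and Nfkbia (1.89-fold, adjusted p = 0.01) in addition, beside 31.5% of all genes. In BYS against SNS limma called 0 of the 7 genes, where 27.1% of all genes were called, with 2 at an unadjusted p under 0.05 (40.2% of all genes) and 1 by the methods' t-test (31.2%). In BNS against SNS it called 0, where 28.6% were called, with 0 at an unadjusted p under 0.05 (41.4% of all genes) and 1 by the methods' t-test (35.6%). That gene, Nfkbia, had a fitted difference of −0.22 (95% interval −0.79 to 0.35), which was 0.08 when fitted on the processed signals.

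Tnfrsf1a, the gene of the main receptor of tumour necrosis factor, was expressed at a high level in every rat. Its levels were 11.07, 10.95, 11.05 and 10.60 in SNS and 10.76, 10.69, 10.89 and 10.39 in BNS. In BYS they were 10.57, 10.61, 11.49 and 11.69, split by array as for the cytokines, in BYA 11.13, 10.22, 10.16 and 10.60, and in BYP 11.27, 11.13, 12.11 and 11.51. BYP rats lay above all SNS, BNS and BYA rats, although BYA replicate 1 and BYP replicate 2 were nearly equal.

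Nfkb1, which encodes the p105 precursor of the p50 subunit of NF-kB, varied little. Its group means were 9.83 ± 0.15 in SNS, 9.86 ± 0.10 in BNS, 10.14 ± 0.23 in BYS, 9.97 ± 0.20 in BYA and 10.31 ± 0.16 in BYP (SD, n = 4). The 4 BYP rats, from 10.15 to 10.53, lay above all SNS, BNS and BYA rats. Tgfb1 was close to background, with 1 SNS rat, 4 BNS, 4 BYS, 2 BYA and 3 BYP rats above it, and its means ran from 7.87 ± 0.05 in SNS to 8.23 ± 0.25 in BYS. It was called in none of the 10 comparisons by limma, with adjusted p from 0.0572 for BYS against SNS to 0.878 for BYP against BYA.

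**Figure D3:**
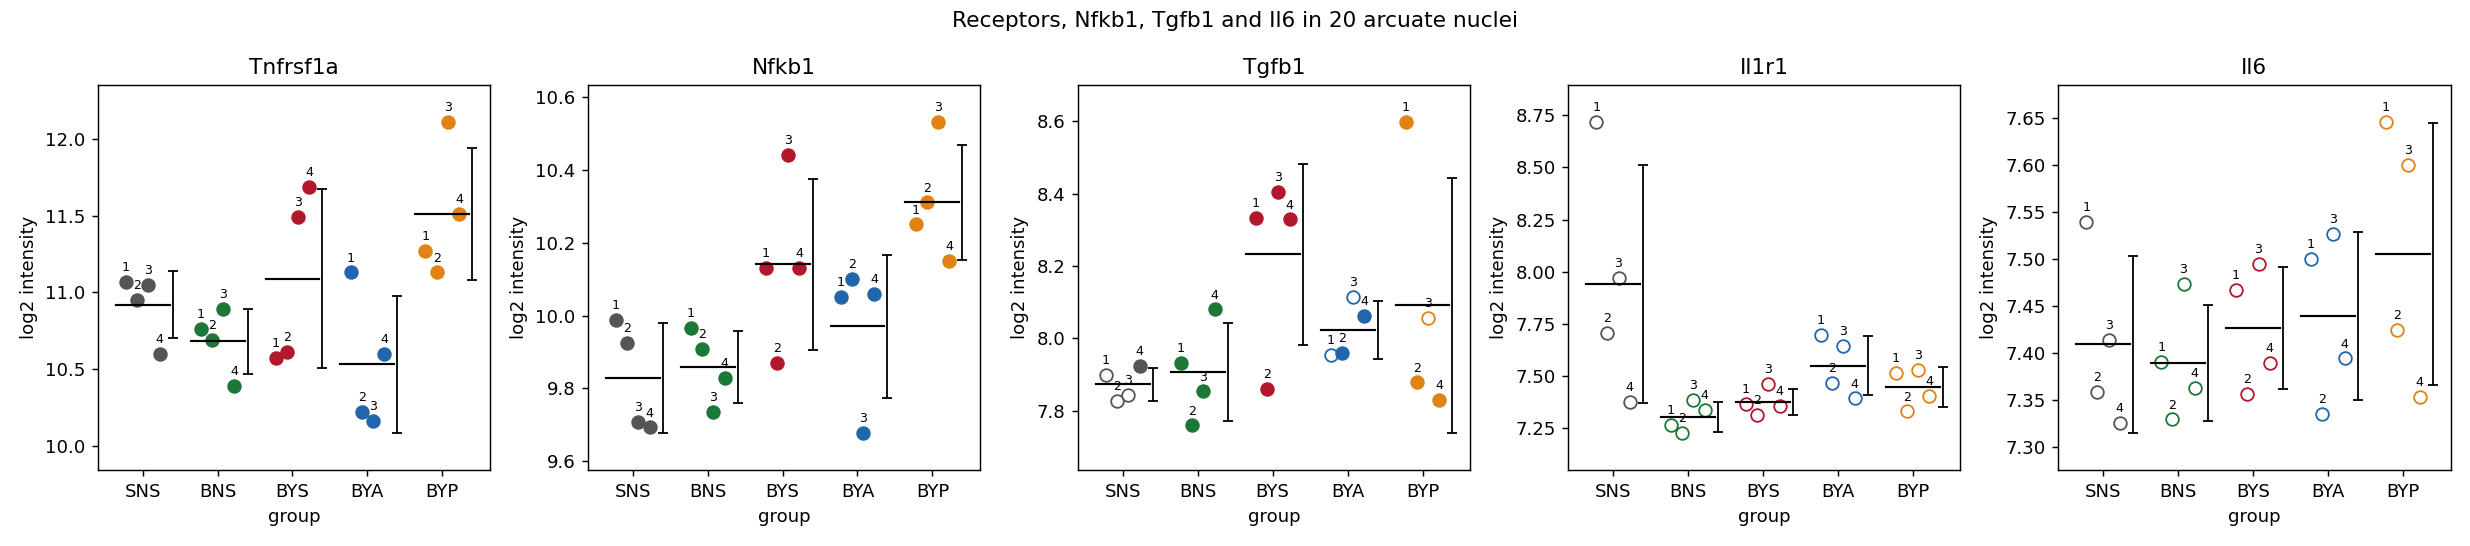
Log2 intensity (vertical axes, each with its own range) of Tnfrsf1a, Nfkb1, Tgfb1, Il1r1 and Il6 in each of the 20 rats by group (horizontal axis). Points are rats, numbered by replicate, filled where above background and open where not; lines are group means and bars the SD (n = 4). Il1r1 and Il6 have open points only, and BYP rats are highest for Tnfrsf1a and Nfkb1 on average.

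Neighbours in the order of group means did not differ by an adjusted p under 0.05 for any of the 7 genes. For Ccl2 and Tnf the order from the highest was BYP, BYA, BYS, BNS and SNS, with means of 10.71 ± 1.08, 10.11 ± 2.02, 9.02 ± 1.79, 7.49 ± 0.10 and 7.39 ± 0.05 for Ccl2 (SD, n = 4). For Il1b and Nfkbia the order was the same but for the last places, SNS above BNS. Tnfrsf1a ran BYP, BYS, SNS, BNS, BYA, and Nfkb1 ran BYP, BYS, BYA, BNS, SNS. Parts of these orders rest on BYA replicate 3. Without that rat the BYP minus BYA difference was −0.34 for Ccl2 and −0.22 for Il1b, which puts BYA first for both. The BYA minus BNS difference of Tnfrsf1a was then 0.01, which puts BYA above BNS.

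A2m was measured by a pair of probes that disagreed about SNS. The probe nearer the 3′ end of the transcript, at chr4:158153349-158153408 (rn4, plus strand), contains the polyadenylation signal, in capitals below, and the other lies upstream of it at chr4:158152445-158152504.
A2m probe nearer the 3′ end, last 30 bases: tgtatttccagagatttgatcAATAAAcca
A2m upstream probe: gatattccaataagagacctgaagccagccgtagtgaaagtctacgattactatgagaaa

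With the probe nearer the 3′ end the SNS levels were 9.48, 9.19, 9.75 and 9.83, all below the BNS levels of 10.78, 10.93, 10.72 and 10.89. With the upstream probe the SNS levels of 11.15, 10.37, 10.68 and 11.16 overlapped with the BNS levels of 10.60, 10.94, 10.60 and 11.01. The SNS mean was thus below those of all 4 other groups with the probe nearer the 3′ end, whereas with the upstream probe it was below BYS and BYP and above BNS and BYA. Averaged over both probes, A2m was 2.02-fold higher in BYS and 2.07-fold higher in BYP than in SNS, which is what it was chosen for. With the upstream probe the log2 differences were 0.32 and 0.34.

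The probes did agree on the rats with NMDA. In BYP, replicates 3 and 4, on 1 array, stood at 12.14 and 11.66 with the probe nearer the 3′ end and at 11.94 and 11.63 with the upstream probe. Replicates 1 and 2, on the other array, stood at 10.78 and 10.70 and at 10.64 and 10.51. In BYS the levels were 10.69, 11.10, 11.57 and 11.74 with the first probe and 10.56, 11.21, 11.55 and 11.30 with the second. BYA, the comparison that did not choose the gene, differed from BNS by 0.04 (SE 0.267, 95% interval −0.52 to 0.60, adjusted p = 0.968), and by 0.05 (−0.57 to 0.68, adjusted p = 0.953) without BYA replicate 3.

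**Figure D4:**
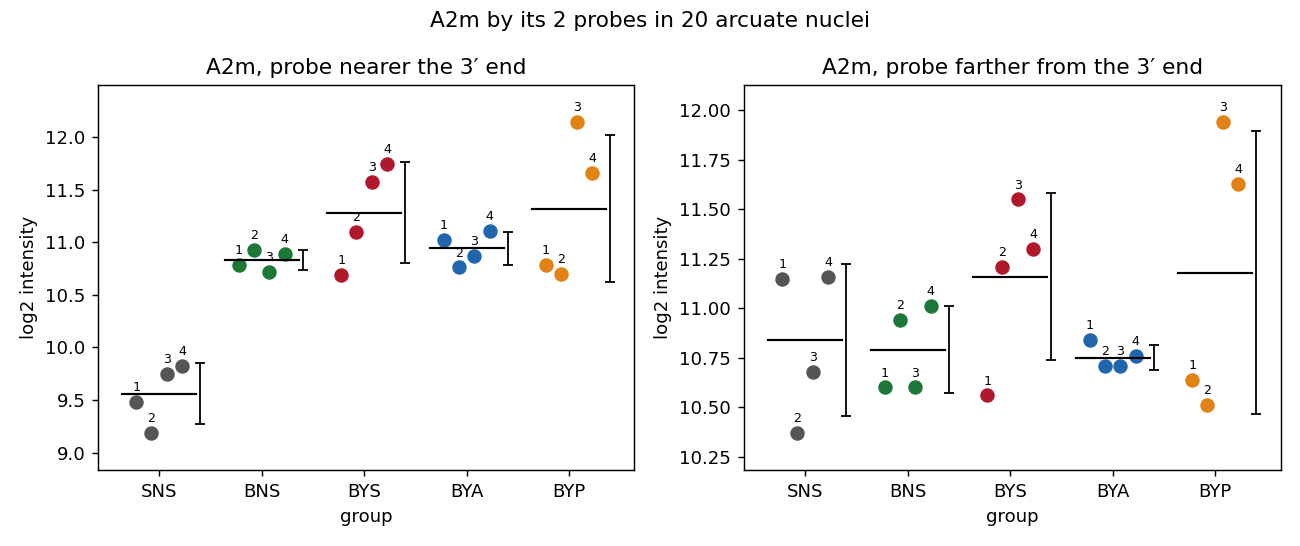
Log2 intensity (vertical axes, each with its own range) of the A2m probe nearer the 3′ end (left) and of the upstream probe (right) in each of the 20 rats by group (horizontal axis). Points are rats, numbered by replicate, all above background; lines are group means and bars the SD (n = 4). SNS stands at a mean of 9.56 in the left panel, below all other groups, and at 10.84 in the right panel, among them.

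Other genes of the same pathways were taken from 7 lists, without the 10 genes above. None of the lists had a gene called in BYS or BYA against BNS, where 0.0293% and 0.117% of all genes were called. There was also none in any comparison among the groups with NMDA, where 0.00% to 0.158% of all genes were called. The lists were not counted without BYA replicate 3. In BYP against BNS, 15 genes for chemokines, adhesion molecules and other NF-kB targets were tested. Ccl3, Cxcl10 and Icam1 were called, all higher, where 1.50% of all genes were called and 0.650% were called higher. Ccl4 and Sele were called higher too, but entered the fit because they were high in BYP. The list's median difference was 0.19 against 0.00 for all genes. Ccl3 was 28.3-fold higher (log2 4.82, SE 0.799, adjusted p = 0.00697), with 2 of 4 BNS rats above background. Ccl4 was at least 7.59-fold higher (adjusted p = 0.00568, and 0.00627 with no filter on dim probes), with 0 BNS rats above background. Cxcl10 was 4.16-fold higher (adjusted p = 0.0187), with 2 BNS rats above background. All 3 are genes of chemokines that recruit leukocytes. The other two, Icam1 and Sele, encode adhesion molecules and were named after their values were seen. Of the 10 genes of all lists called in this comparison, only Ccl3 and Ccl4 passed with the array as a random block (adjusted p = 0.0307 each). Ccl4 was kept by the filter through BYP alone. In that fit 15 of all genes were called in place of 257. With channels brought to a common median none of the 10 genes passed (adjusted p from 0.373 to 0.932), and 0 of all genes were called.

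The Ccl3 levels were 7.78, 7.81, 7.43 and 7.62 in SNS and 7.76, 7.66, 7.71 and 7.77 in BNS. In BYS they were 7.79, 7.91, 12.04 and 12.08, the same split by array as in Ccl2. The BYA levels were 11.90, 10.97, 9.99 and 12.47. BYA replicate 3, which was at the level of the rats without spasms for Ccl2 and Il1b, was thus lowest in its group for Ccl3 too but lay above every SNS and BNS rat. The BYP levels of 12.48, 12.69, 13.37 and 11.63 were the highest of the groups on average.

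Of 16 tested NF-kB factors and inhibitors, 2 were called in BYP against BNS, where 1.50% of all genes were called and 0.650% were called higher. Both are inhibitor genes of the IκB family and both were higher. Neither passed with the array as a random block or with channels brought to a common median. Nfkbib was 1.39-fold higher (adjusted p = 0.0460) and Nfkbie 1.69-fold (adjusted p = 0.0385), the latter with overlapping groups. Against SNS their means were nearly equal in BYP, at 10.20 and 10.22 for Nfkbib and 9.15 and 8.93 for Nfkbie. Rela, the gene of the p65 subunit, was at 5.92 in BYP replicate 3, far below the 9.54 to 10.60 of the other 19 rats. This single value was also below the lowest level of Il1r1, 7.23 in BNS replicate 2, a gene not above background in any rat. It is therefore not read as a level of Rela in that rat, and its cause was not tested. Rel and Relb had no probe under these names.

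Among 13 tested genes of the TNF branch, Ripk1, a kinase that carries the signal of Tnfrsf1a, was 1.38-fold higher in BYP than in BNS (adjusted p = 0.0473). Of 16 tested genes of the IL-6 branch, Il11 fell to 0.793 of its BNS level (adjusted p = 0.0325). Mt2A, a metallothionein gene and the 1 called of 9 tested acute-phase genes, was 4.18-fold higher (adjusted p = 0.0235). Of all genes 1.50% were called in BYP against BNS, and 0.650% were called higher. Ripk1, Il11 and Mt2A did not pass with the array as a random block (adjusted p = 0.199, 0.19 and 0.0927). Nor did they with channels brought to a common median (adjusted p = 0.834, 0.932 and 0.373). All 9 genes of the acute-phase list had a fitted difference above 0, with a median of 0.98 against 0.00 for all genes. The list was written with earlier results of these data known, so its common direction is a description. Among the 17 tested genes each of the interleukin-1 and Toll-like receptor branch and of the TGF-β branch limma called 0 in BYP against BNS, with list medians of 0.12 and 0.09.

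**Figure D5:**
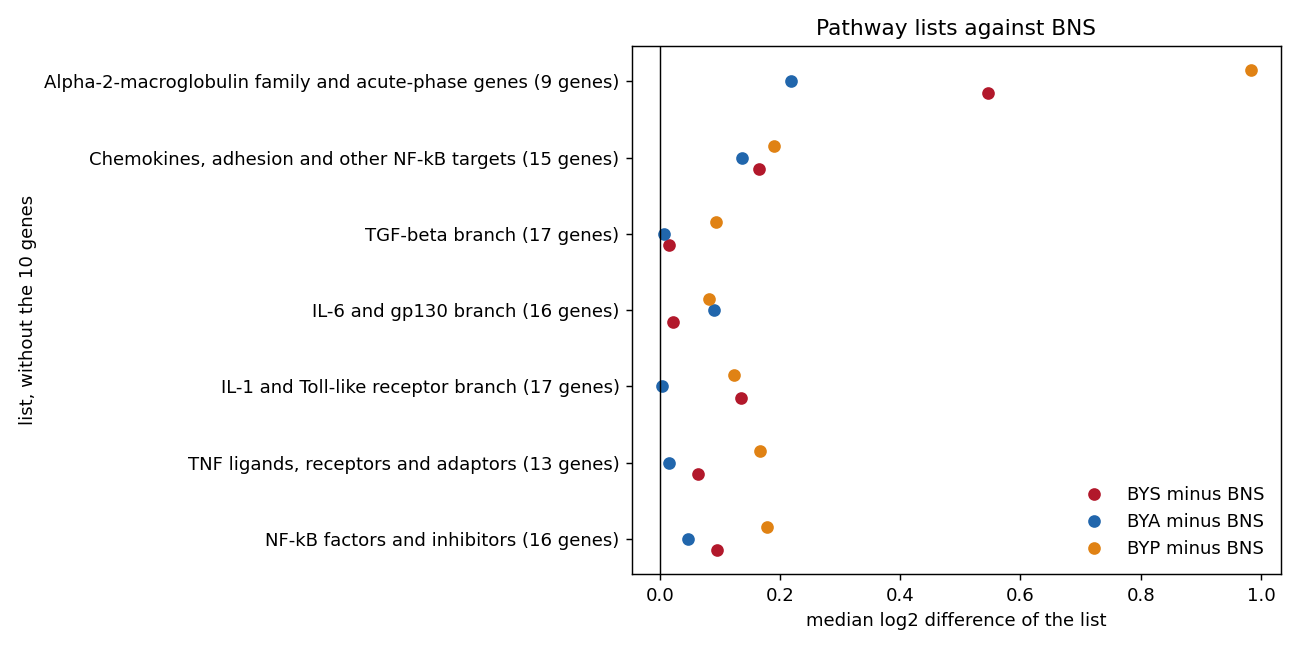
Median log2 difference (horizontal axis) from BNS of the tested genes of 7 pathway lists (vertical axis), without the 10 genes described above, in BYS, BYA and BYP. The acute-phase list has the largest medians, 0.98 in BYP, 0.55 in BYS and 0.22 in BYA, and all other medians lie between 0 and 0.2.

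Against SNS the lists held calls in both directions, on the broad background given above. Myd88, the adaptor of the interleukin-1 and Toll-like receptors, was 1.49-fold higher in BNS, 1.70-fold in BYS, 1.58-fold in BYA and 1.91-fold in BYP. Tab2, an adaptor upstream of the IκB kinases, was 1.36-fold, 1.31-fold, 1.64-fold and 1.55-fold higher. Map3k7, of the same list as Tab2, was called lower, at 0.692 of its SNS level in BNS and 0.712 in BYA. Of the 16 tested genes of that list, 3 were called higher and 3 lower in BNS, and likewise in BYA. In BYS 4 were called higher and 1 lower, and in BYP 5 and 1. The shares of all genes called were 28.6% in BNS, 31.3% in BYA, 27.1% in BYS and 28.9% in BYP. Cx3cr1, the fractalkine receptor of microglia, was lower by 0.73 in BNS and by 1.22 in BYS on the log2 scale. Lcn2, which encodes the iron-binding protein lipocalin 2, was 2.12-fold higher in BYS and 3.04-fold higher in BYP.

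Levels were compared over the 20 rats with the dye effect removed, to find the genes whose pattern was most like that of each gene. The 20 points share arrays and slides, so the correlations are descriptions. For Ccl2 the 3 most alike were Junb (r = 0.974), Csrnp1 (0.963) and Egr4 (0.960), of which Junb and Egr4 are immediate early genes. For Il1b they were Ccl2 (0.959), Map3k6 (0.948) and Ccl3 (0.937), and for Tnf they were Fosl1 (0.934), Spsb1 (0.932) and Atf3 (0.931). Nfkbia was most like Depp1 (0.900), Ier2 (0.894) and Il1b (0.892). Nfkb1 was most like Lcn2 (0.892), Cxcl10 (0.885) and Chsy1 (0.882), and A2m like Myd88 (0.934), B4galt5 (0.883) and RGD1562952 (0.879). Tgfb1 was most like Mk1 (0.887), Zc3h12a (0.816) and a probe without a gene name. Among the genes most like Tnfrsf1a were Tmbim1 (0.940) and Trim47 (0.908).

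Junb shows the rats behind these values. Its levels were 10.66 and 10.62 in BYS replicates 1 and 2 against 12.85 and 12.40 in replicates 3 and 4, and 10.95 in BYA replicate 3 against 12.03 to 13.10 in the other BYA rats. In SNS and BNS they lay between 10.51 and 11.45.

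Markers of other cells of the region were set beside these genes. Of 11 tested microglia markers limma called 0 in BYS, BYA or BYP against BNS, where 0.0293%, 0.117% and 1.50% of all genes were called. Median differences were −0.04, −0.07 and −0.05, with 5, 2 and 5 markers fitted higher. The mean level of the list lay between 9.86 and 10.21 in all 20 rats, but single markers went in opposite directions. Itgam ran from 8.16 to 8.29 in BNS, from 8.44 to 9.25 in BYS and from 8.51 to 9.29 in BYP. Its BYS and BYP rats lay above all BNS rats, as they did for 2.58% and 6.33% of all genes. P2ry12 ran from 10.81 to 11.33 in BNS and from 9.88 to 10.91 in BYP. Of 9 astrocyte markers it called 0 as well, with medians of 0.30 in BYS, 0.08 in BYA and 0.27 in BYP, and list means from 11.53 to 11.72 in BNS and from 11.86 to 12.15 in BYP. Of 10 blood cell markers 9 were on the array and 3 were tested, with list means from 11.64 to 12.29 in BNS and from 11.50 to 11.67 in BYP. Endothelial, choroid plexus and meningeal markers had 0 calls against BNS in these 3 comparisons. The part of any of these cells in the results was not tested.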

How the data were processed

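Arcuate nucleus RNA of 20 female rats, 4 in each of 5 groups, was measured on 11 two-colour arrays of 6 slides, 1 rat per channel (Cy3 or Cy5). The authors deposited 1 scanner output per array (Agilent Feature Extraction, version 11.5.1.1 per the file headers and 10.7.3.1 in the submitters' processing notes), in which the mean spot signals and local backgrounds are intensities without normalization, per the file headers. The deposited flags of a spot hold 0 or 1, and the deposited processed signals are intensities that the software had background-subtracted and dye-normalized. The 82 columns of another series were not used.

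The normexp background correction (offset 50), quantile normalization over 20 channels and log2 followed. Outlier spots (1.18%) were left out, spots and then probes of a gene were averaged, and probes with less than 0.5 of their spots above background in some rat of every group were removed, which left 17086 genes. The accessions of 18643 of 30367 probes (61.4%) matched RefSeq symbols, and the others kept the name in the files. Group and dye were fitted with limma 3.58.1 (R 4.3.3) over all samples, two-sided, with Benjamini-Hochberg adjustment over all genes in each of 10 comparisons. The methods' t-test (unequal variance, unadjusted p under 0.05) was run on the same values. A group with no rat above background was set, per array, to the higher of its own signal and the lowest signal above background to give a bound.

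The 10 genes and all lists were chosen with earlier results of these data known. Named are these genes, from each list the 3 called genes with the lowest adjusted p against SNS or BNS and any called among the groups with NMDA, and the 3 genes most like each gene. Values are not given for all of them, and some items, a sequence among them, are not reported here. In simulated data of 16299 genes for BYP against BNS, limma recovered 38.8%, 95.5% and 100% of genes changed by 0.5, 1 and 2 on the log2 scale. The simulated noise was independent in each channel, whereas channels of an array had a correlation of 0.365 in the data. The changed genes were drawn from all genes, so these shares do not hold for the 10 genes, some of which had large errors. Same-numbered samples did not pair, with a mean correlation of 0.0031 (−0.239 to 0.28).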

Additional observations from a re-analysis of the deposited data

Results flagged for a closer look

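Of the 8 genes kept, 3 had a rat far from the other 3 of its group (Dixon's criterion, which chance meets in about 1 of 20 groups; 40 were examined). Nfkbia was at 10.33 in BYP replicate 4, against 11.59 to 11.64 in the other BYP rats. Nfkb1 was at 9.68 in BYA replicate 3, against 10.05 to 10.10 in the other BYA rats. Tgfb1 was at 7.86 in BYS replicate 2, against 8.33 to 8.40 in the other BYS rats.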

How the results depend on the processing

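Ccl2 and Il1b passed the filter through BYP alone, and the counts below include them, also in comparisons with BYP. The counts of genes called among the 7 tested ones changed as follows, with the share of all genes called in parentheses. With channels brought to a common median, which moved the median of all genes by up to 0.15 against BNS, 0 were called in BYA against SNS (8.13%), 3 in BYP against SNS (28.7%) and 0 in BYP against BNS (0.00%). Without background correction 1 was called in BYS against SNS (27.7%). Without the filter 1 was called in BNS against SNS (24.0%) and 1 in BYS against SNS (21.9%), each time Il1r1, which was not above background. With only probes above background in all samples, which removes Il1b, Ccl2, Tnf and Tgfb1, the counts were 0 in BYA against SNS (32.5%), 2 in BYP against SNS (29.7%) and 1 in BYP against BNS (0.560%). With only the 2 groups compared, 1 was called in BYA against SNS (17.7%). With the array as a random block (correlation 0.365), 1 was called in BYA against SNS (19.4%) and 0 in BYP against BNS (0.0878%). With the slide as a random block, 4 were called in BYS against SNS (46.0%), 4 in BYA against SNS (45.5%), 3 in BYA against BNS (5.01%), 6 in BYP against BNS (15.5%) and 1 in BYP against BYA (5.99%); its correlation of −0.128 shrinks the errors, since only BYA spans slides. With the replicate block, 1 was called in BYS against SNS (28.5%) and no other count changed by over 1.5 times. With loess on 9 arrays, 1 was called in BYA against BNS (1.90%) and, within 1.5 times, 3 each in BYA against SNS (27.1%) and BYP against BNS (2.39%). The methods' t-test without adjustment found 1 in BNS against SNS (35.6%), 1 in BYS against SNS (31.2%), 1 in BYS against BNS (7.57%), 1 in BYA against SNS (29.4%), 1 in BYA against BNS (10.3%), 6 in BYP against BNS (14.9%) and 2 in BYP against BYA (6.91%); after Benjamini-Hochberg adjustment it found 0 in BYA against SNS (7.17%), 0 in BYP against SNS (8.04%) and 0 in BYP against BNS (0.0644%). Leaving out 1 rat gave 0 to 2 in BYS against SNS (18.7% to 28.4%), 2 without BYS replicate 2 and 1 without BYA replicate 3 or BYP replicate 1. It gave 0 to 4 in BYA against SNS (24.9% to 32.0%) and 0 to 4 in BYP against BNS (0.421% to 2.05%). In BYA against BNS it gave 0 to 3 (0.00585% to 1.07%), 3 without BYA replicate 3. In BYP against SNS the count stayed at 5 (24.0% to 30.1%), with Il1b and Ccl2, kept through BYP alone, among the 5. The other 5 comparisons stayed at 0 (20.8% to 29.9% in BNS against SNS, and 0.00% to 1.55% in the rest). Apart from the case of Il1r1, the cause was not tested. Tnf was called in BYP against SNS under all 32 limma settings in which it was fitted, those that left out 1 rat included. In the main fit 28.9% of all genes were called there. Il1b and Ccl2 were called under the same settings, but were kept by the filter because they were high in BYP. Nfkbia was called in BYP against BNS under 23 of 33 limma settings, with adjusted p from 0.000755 to 0.633. No difference that limma called with all 20 rats changed its direction under any of the limma settings, while that of Nfkbia in BNS against SNS, called by the methods' t-test alone, ran from −0.44 to 0.08. Signal over background limits Il1b, Ccl2 and Tgfb1, and Il6 and Il1r1 most.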
